A study of Rattus norvegicus with 12 samples.

Results

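Prolactin (Prl), the dopamine receptor Drd2, the prolactin receptor (Prlr), both oestrogen receptors (Esr1 and Esr2) and the nuclear receptor Nr4a2 were followed in fetal rat pituitaries. The genes were found by the gene name that the array files give for each probe, which gave 10 probes of 6 genes out of 30367 probes. Of these, 6 probes of 4 genes (Prl, Drd2, Nr4a2 and Prlr) passed a filter on dim probes, and 19350 genes in all were tested. Whole pituitaries of Wistar rats were taken at gestational day 18 and measured on 12 one-colour arrays, in 4 groups of 3. The groups were male fetuses exposed to TCDD, male controls, female fetuses exposed to TCDD and female controls. TCDD is a dioxin and a ligand of the aryl hydrocarbon receptor, and the series title states that exposure was through the mother. The labels give no dose, no day of dosing, no vehicle, no litter, and no word on whether an array holds 1 pituitary or several. The p-values therefore measure only the spread between these samples, which may be technical or shared within a litter.

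Prolactin is made by lactotropes of the anterior pituitary. Dopamine from the hypothalamus reaches these cells through the portal blood and acts on the receptor encoded by Drd2, which lowers the release of prolactin and the transcription of its gene. Oestrogen acts through Esr1 and Esr2 and raises prolactin, and the pituitary factor Pou1f1 is needed for lactotropes to form. In the rat most lactotropes appear around and after birth, so the fetal pituitary is a tissue in which this axis is only being built. Nr4a2 is best known for its part in making midbrain dopamine neurons and also belongs to a family of early response nuclear receptors. Prlr is a cytokine receptor that passes the hormone's signal on through Jak2 and Stat5.

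The probes are strands of 60 bases laid on the array, with positions on the rn4 build. The single probe of Prl lies at chr17:44699179-44699238 on the minus strand. The probes of Drd2 lie at chr8:52707670-52707729 and chr8:52706533-52706592 on the plus strand, with starts 1137 bases apart. Those of Nr4a2 lie at chr3:38866834-38866893 and chr3:38867352-38867411 on the minus strand, with starts 518 bases apart. The probe of Prlr covers chr2:59677666-59678170 on the plus strand, and since these 505 bases are longer than the probe, its letters do not lie in 1 unbroken run of the genome. Esr1 has 1 probe at chr1:35660062-35660121 on the plus strand, and the 3 probes of Esr2 lie between chr6:98691185 and chr6:98691905 on the minus strand. Whether a probe lies in a coding exon or a UTR was not looked up here. The longest run of letters that any of the 10 probes shares with a probe of another gene is 15 bases. The letters of 4 probes follow, since they show what the dimmer readings of Drd2 and Nr4a2 and the near-background readings of Prlr and Esr1 are readings of.
Drd2, dimmer probe: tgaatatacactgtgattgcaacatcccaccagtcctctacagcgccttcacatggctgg
Nr4a2, dimmer probe: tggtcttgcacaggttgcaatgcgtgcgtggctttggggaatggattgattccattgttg
Prlr: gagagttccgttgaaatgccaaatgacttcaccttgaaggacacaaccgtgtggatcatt
Esr1: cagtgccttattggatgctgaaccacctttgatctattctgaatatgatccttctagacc

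The 250 bases before the Prl start site are shown because Pou1f1, whose own level is given with the regulators, is known to bind there. They are credited to RefSeq on the GRCr8 build (chr17:38298218-38298467, minus strand). The capitals mark the only match, on either strand, to ATGNATA, a core of the Pou1f1 motif, which starts 24 bases before the start site.
Prl, before the start site: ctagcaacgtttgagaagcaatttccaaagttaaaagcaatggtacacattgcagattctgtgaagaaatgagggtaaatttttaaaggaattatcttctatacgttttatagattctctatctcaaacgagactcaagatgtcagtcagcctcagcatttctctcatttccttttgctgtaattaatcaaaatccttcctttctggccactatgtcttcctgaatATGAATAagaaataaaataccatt
Of 33469 RefSeq windows reaching from 250 bases before to 50 after a start site, 9.88% held ATGNATA. The letters GCGTG, the core that the aryl hydrocarbon receptor binds, stood in 29.7% of windows on either strand. They occurred once in the window of Esr1, once in that of Esr2 and 2 times in 1 of the windows of Prlr. The windows of Prl, Drd2 and Nr4a2 held none, which says only that these letters are not in these 300 bases. Neither AAAGGTCA, the element of the Nr4a family, nor the full palindrome of the oestrogen response element stood in any of the windows of the 6 genes, and they were found in 1.43% and 0.0269% of all windows.

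A reading was taken as measured where the scanner software marked as many or more spots of a probe well above background than not. For Prlr the count rests on that rule, since male TCDD 1, 1 of its 3 arrays, had 5 of 10 spots well above background. The readings split the genes into those far above the limit of detection and those at or below it. Prl, the brighter probe of Drd2 and both probes of Nr4a2 were well above background on 12 of 12 arrays. The dimmer probe of Drd2 was so on 10 arrays (89 of 115 spots) and the probe of Prlr on 3 arrays (32 of 111 spots). Esr1 was not well above background in any of 115 spots, and none of the 3 probes of Esr2 was on any array. Esr1 and Esr2 therefore gave only bounds in all 4 groups and entered no test. In a whole pituitary, fewer cells of a type and less RNA per cell cannot be told apart.

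**Figure D1:**
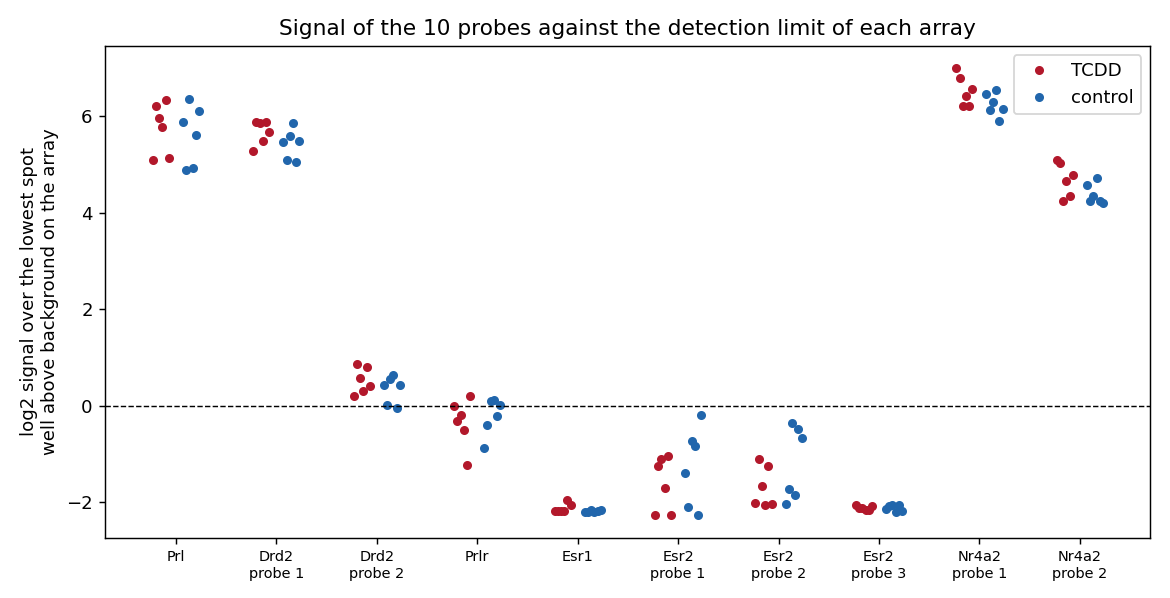
Signal of each of the 10 probes on each array, as log2 over the lowest spot that was well above background on the same array. Points left of a probe's tick are the 6 TCDD arrays, points right of it the 6 control arrays, and the dashed line is the limit. Prl, the brighter probe of Drd2 and both probes of Nr4a2 lie well above the line in every array, Prlr lies around it, and Esr1 and Esr2 lie under it.

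Facts of the whole set bear on every value here. All arrays were scanned on 1 day and lie on 3 slides. Slide 1 held the 3 male controls and male TCDD 1, slide 2 held male TCDD 2 and 3 and female controls 1 and 2, and slide 3 held the 3 exposed females and female control 3. Male and female controls thus share no slide, so a difference between them cannot be told apart from one between slides. No spot was saturated. The exposure was visible in Ahrr, the repressor of the aryl hydrocarbon receptor, which stood between -0.22 and 0.68 on the 6 TCDD arrays, against -6.26 to -4.98 on the 6 controls. Levels are log2 of the intensity relative to the 75th percentile of the array. The tissue label was checked against 12 markers of the anterior pituitary, of which 11 were measured and Hesx1 was not above background. The mean of 10 of them lay between -0.85 and 0.50 in exposed males, between 0.47 and 0.77 in male controls, between -0.23 and -0.05 in exposed females and between 0.28 and 0.84 in female controls. All 11 were lower with TCDD over both sexes (median difference -0.46, against -0.02 over all genes), and none passed the test. Markers of sensory ganglion neurons, cells that are no part of the pituitary, were high on some arrays. The mean of 16 ganglion markers was between 0.25 and 1.66 on 6 arrays (male TCDD 1 and 2, male control 2, female TCDD 1 and 3, female control 2) and between -4.08 and -3.30 on the other 6. By group it ran from -3.71 to 1.66 in exposed males, from -4.05 to 0.25 in male controls, from -3.86 to 0.70 in exposed females and from -4.08 to 0.78 in female controls. Male TCDD 1 stood apart, with the highest ganglion mean and with an Avp (vasopressin) level of -1.85, while the other 11 arrays lay between -6.23 and -5.57. These signals are given beside the results that they move with, and their part in them was not tested. Leaving out the 6 arrays with high ganglion markers keeps 1 exposed array in each sex, male TCDD 3 and female TCDD 2.

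Prolactin mRNA was detected on every array, and its level varied more within groups than between them. In exposed males it was -1.67, -0.34 and -0.48, and in male controls -0.69, -1.43 and -0.39. In exposed females it was -0.77, -0.24 and -1.74, and in female controls -1.53, -0.81 and -0.51. Each group had 1 array with a low level and 2 with higher ones, and exposed and control arrays overlapped in both sexes. In males 8.39% of all genes lay higher without overlap on the exposed arrays and 6.03% lower, and none of the 4 tested genes was among them. The 4 low arrays (female TCDD 3, male TCDD 1, female control 1 and male control 2) lay between -1.74 and -1.43, and the next array above them at -0.81. They were spread over all 3 slides, 3 of them had high ganglion markers, and female control 1, the third lowest, had a ganglion mean of -3.65 and the highest pituitary marker mean (0.84). Their processed intensities were 376 for female TCDD 3, 353 for male TCDD 1, 337 for female control 1 and 347 for male control 2, all far above the limit of detection. On the 6 arrays with high ganglion markers Prl ran from -1.74 to -0.34 (median -1.12), and on the other 6 from -1.53 to -0.24 (median -0.50). The level of -0.34 was that of male TCDD 2, with a ganglion mean of 0.93.

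The group means of Prl were -0.83 ± 0.73 in exposed males and -0.84 ± 0.54 in male controls, and -0.92 ± 0.76 in exposed females and -0.95 ± 0.52 in female controls (SD, n = 3). Over the 12 arrays the level spanned 2.81-fold, and the SD within groups was 0.65, against a median of 0.23 over all genes tested. In limma, the difference over both sexes was 0.02 (SE 0.33, adjusted p = 0.984). Its 95% interval ran from 0.609-fold to 1.69-fold, and changes within that interval could not be told from none with these arrays. The differences by sex were 0.01 in males and 0.03 in females, and the difference between these was -0.03. Male controls stood 0.11 above female controls (SE 0.47). With slide as a block the difference was -0.84 in males, -0.40 in females and -0.62 for both, the first resting on male TCDD 1, the only exposed male on slide 1. In that fit male controls stood 1.59 above female controls (adjusted p = 0.417 in limma). As the control groups share no slide, this value was reached only through the exposed arrays. Without male TCDD 1 the difference in males was 0.43. Without the 6 arrays with high ganglion markers the difference was 0.78 in females and 0.42 for both sexes, on 1 exposed array in each sex. The exposed female left was female TCDD 2, which had the highest Prl level of the 12 arrays (-0.24).

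**Figure D2:**
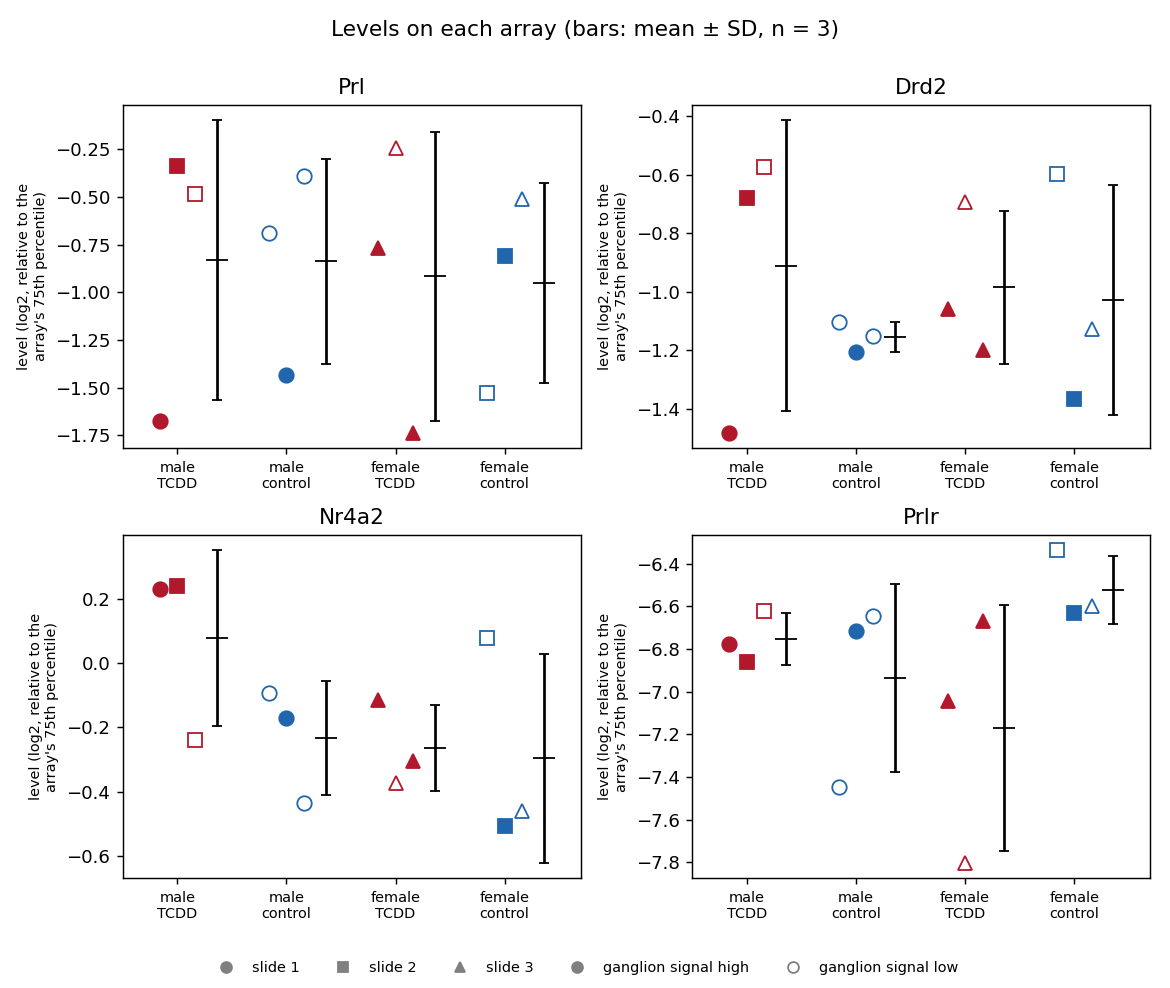
Level of Prl, Drd2 (brighter probe), Nr4a2 (brighter probe) and Prlr on each of the 12 arrays, in log2 units above or below the 75th percentile of that array. Marker shape gives the slide, filled markers are arrays with high sensory ganglion markers, readings of Prlr are mostly near background, and black bars are the mean ± SD of 3 arrays. In Prl each group has 1 array between -1.74 and -1.43 and 2 arrays at -0.81 or above.

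Drd2, the receptor through which dopamine restrains lactotropes, was also measured on every array. Its brighter probe read -1.48, -0.68 and -0.57 in exposed males and -1.10, -1.21 and -1.15 in male controls. It read -1.06, -0.69 and -1.20 in exposed females and -0.60, -1.37 and -1.13 in female controls. The male controls lay close together, while 2 exposed males lay above them and male TCDD 1 below them, so that the groups overlapped. In females the exposed arrays lay inside the range of the controls. The probe was spotted 8 to 10 times after outlier removal, and its spots on an array had an SD between 0.02 and 0.05, far less than the SD within groups of 0.34.

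Drd2 averaged -0.91 ± 0.50 in exposed males and -1.15 ± 0.05 in male controls (SD, n = 3), a difference of 0.24 (SE 0.26, adjusted p = 0.639 in limma). In females it averaged -0.98 ± 0.26 with TCDD and -1.03 ± 0.39 in controls (SD, n = 3), a difference of 0.05. Over both sexes the difference was 0.14, with a 95% interval from 0.837-fold to 1.46-fold. It lay between 0.059 and 0.29 on leaving out 1 array. Without the 6 arrays with high ganglion markers the difference over both sexes was 0.36, and 0.56 in males, on 1 exposed array in each sex. The exposed male left was male TCDD 3, which had the highest Drd2 level of all arrays (-0.57). Neither the difference of the effects between sexes (0.20) nor that between male and female controls (-0.12) passed the test. The male value turned on male TCDD 1. Without it the difference was 0.53 (adjusted p = 0.678), and with slide as a block, where it is the only exposed male set against controls of its own slide, it was -0.33. On the 6 arrays with high ganglion markers the level ran from -1.48 to -0.68 (median -1.20), and on the other 6 from -1.15 to -0.57 (median -0.90).

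Nr4a2 was well above background on every array, and its largest difference was in males. Its brighter probe read 0.23, 0.24 and -0.24 in exposed males and -0.09, -0.17 and -0.43 in male controls. It read -0.12, -0.37 and -0.30 in exposed females and 0.08, -0.51 and -0.46 in female controls. Male TCDD 1 and 2 lay above all male controls and male TCDD 3 among them, so the groups overlapped, and in females the exposed arrays lay inside the range of the controls. The mean was 0.08 ± 0.27 in exposed males and -0.23 ± 0.18 in male controls, and -0.26 ± 0.13 in exposed females and -0.30 ± 0.33 in female controls (SD, n = 3). The difference was 0.31 in males (SE 0.18, unadjusted p = 0.118 and adjusted p = 0.517 in limma) and 0.03 in females. The 95% interval over both sexes ran from 0.924-fold to 1.37-fold around a difference of 0.17. The difference between the sexes was 0.28 (SE 0.26, adjusted p = 0.886), and male controls differed from female controls by 0.06. On leaving out 1 array the difference lay between 0.21 and 0.47 in males, between 0.12 and 0.27 for both sexes, and between 0.091 and 0.44 for the difference between the sexes. With slide as a block the difference was 0.46 in males (adjusted p = 0.257 in limma) and 0.33 for both sexes. This male value rested on male TCDD 1, the only exposed male on slide 1. The 2 exposed males above all male controls were those with high ganglion markers. On the 6 arrays with high ganglion markers the level ran from -0.51, in female control 2, to 0.24 (median -0.14). On the other 6 it ran from -0.46 to 0.08 (median -0.31), so the ranges overlapped. Without the 6 arrays with high ganglion markers the difference was 0.03 in males, -0.18 in females and -0.08 for both, on 1 exposed array in each sex.

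**Figure D3:**
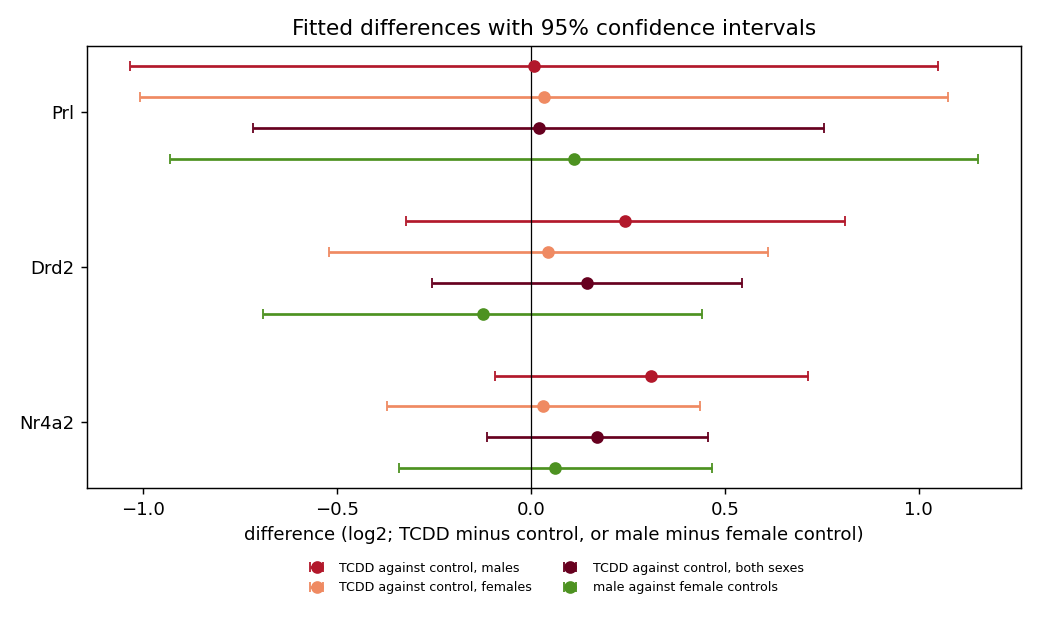
Fitted log2 differences of Prl, Drd2 and Nr4a2 with 95% confidence intervals from limma, for the effect of TCDD in each sex and over both, and for male against female controls. All 12 intervals include 0.

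The second probes read the same pattern. The dimmer probe of Drd2 gave differences of 0.17 in males and -0.01 in females, and the dimmer probe of Nr4a2 gave 0.36 in males and 0.04 in females. The gap between the 2 probes of Drd2 had an SD of only 0.10 over the 12 arrays, and that between the probes of Nr4a2 an SD of 0.09. These are smaller than the SD within groups of either gene (0.34 for Drd2 and 0.24 for Nr4a2), so most of the variation among arrays was seen by both probes. Prl has a single spot on each array and no such check.

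**Figure D4:**
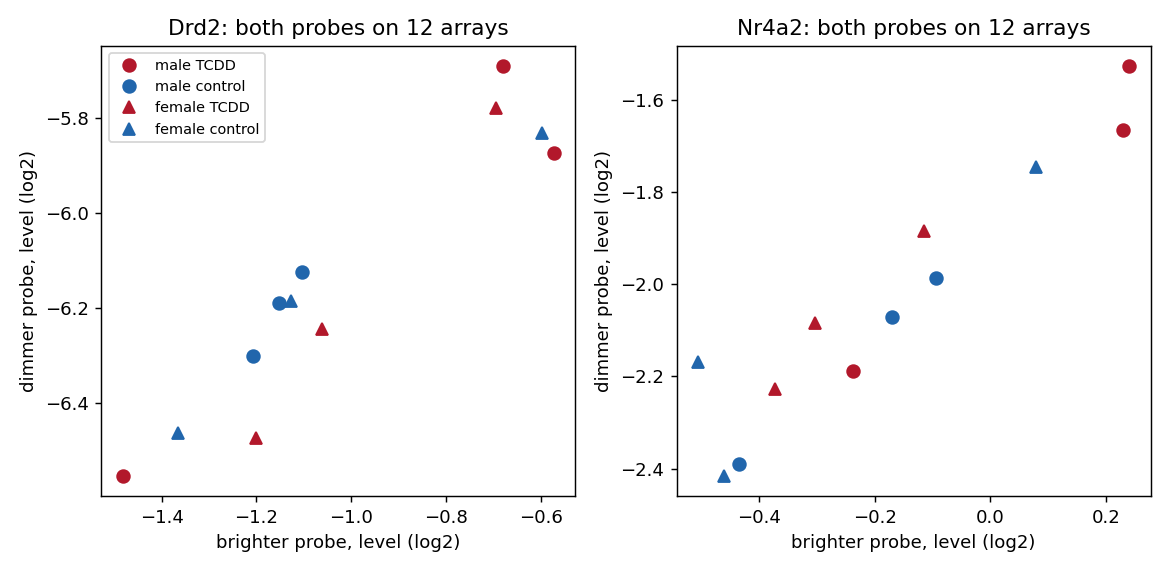
Level of the dimmer against the brighter probe of Drd2 (left) and Nr4a2 (right) on the 12 arrays, on the same log2 scale, with red points for TCDD and blue points for controls. The probes rank the arrays in nearly the same order, and the gap between them varied with an SD of 0.10 for Drd2 and 0.09 for Nr4a2.

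Prlr, the receptor of the hormone, lay at the limit of detection. It read -6.77, -6.86 and -6.62 in exposed males, -7.45, -6.72 and -6.65 in male controls, -7.04, -7.80 and -6.67 in exposed females and -6.34, -6.63 and -6.60 in female controls. Only male TCDD 1, male control 3 and female TCDD 3 were well above background. The female controls were not well above background on any array and have only a bound, and the readings of Prlr have no firm order. Fitted differences of Prlr are therefore left to the closing section. They are differences between near-background readings and are not read as effects. Exposed females and male controls both read below all female controls on the main scale. Of all genes with values, 5.51% lay lower without overlap in exposed than in control females and 1.44% higher, and 8.63% lay lower in male than in female controls and 1.94% higher. In the authors' deposited value table the female groups overlapped, with log2 intensities from 1.85 to 3.58 in exposed and from 3.17 to 3.63 in control females. Male and female controls overlapped there too (2.73 to 3.43 in males), and also when each array was centred on its median (-4.92 to -4.13 in male and -4.16 to -3.89 in female controls).

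None of the 4 tested genes passed at an adjusted p of 0.05 in any comparison. The background was low. Of 19350 genes, 0.0103% were called in males, 0.0103% in females, 0.0207% with both sexes combined, 0% for the difference between the sexes and 0.0103% between male and female controls. The 4 genes called over both sexes were Ahrr, Cyp1a1, Ihh and Nqo1, all higher with TCDD. At an unadjusted p below 0.05 there were 1807 genes in males, 518 in females, 1250 for both combined, 863 for the difference between the sexes and 1065 between the control groups, with none of the 4 among them.

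The other genes of the axis were followed in lists, and in none of them did a gene pass in any comparison. Upstream of prolactin, 18 of 20 lactotrope regulators were measured, with 4 above and 14 below 0 over both sexes (median difference -0.12). Pou1f1, the factor that activates Prl, had a difference of -0.46 (SE 0.21), Fgf2 one of -0.52 (SE 0.25) and the glucocorticoid receptor Nr3c1 one of -0.31 (SE 0.19). Each of these 3 had an adjusted p of 0.67. Over the other settings Pou1f1 ran from -0.78 to -0.22, Fgf2 from -1.06 to -0.18 and Nr3c1 from -0.57 to -0.021. Pou1f1 and Nr3c1 were nearest to 0 without the arrays with high ganglion markers. Pou1f1 is also one of the pituitary markers, all of which had a negative difference.

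On the dopamine side, 9 of 10 genes of synthesis, transport and breakdown were measured, 3 above and 6 below 0 (median -0.04), and the dopamine transporter Slc6a3 was not above background. Maob, which breaks dopamine down, had a difference of -0.30 (SE 0.11), Gch1, which makes the cofactor of dopamine synthesis, -0.24 (SE 0.16), Ddc, the last enzyme of that synthesis, -0.13 (SE 0.13) and the vesicular transporter Slc18a2 0.13 (SE 0.14). Of 15 other dopamine receptors and coupling genes 12 were measured, 8 above and 4 below 0 (median 0.06). The receptors Drd1 and Drd3 and the potassium channel Kcnj6 were not. Rgs2, which shortens G protein signals, had a difference of -0.54 (SE 0.16, unadjusted p = 0.00752 and adjusted p = 0.67 in limma). It ran from 1.04 to 2.06 in exposed males and from 1.82 to 2.22 in male controls, which overlapped, and from 1.46 to 1.62 in exposed females and from 1.78 to 2.30 in female controls, which did not, as for the 5.51% of genes that lay lower in females. Gnao1 (difference 0.87, SE 0.61), a G protein subunit common in neurons, and the arrestin Arrb2 (0.23, SE 0.13) followed, and without the arrays with high ganglion markers Gnao1 was at -0.06. Gnaz, another such subunit, was not well above background on any male control array, so no difference is given.

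In the list for prolactin receptor signalling, which includes the related receptor Ghr, all 9 genes were measured, 6 above and 3 below 0 (median 0.11). The largest of the 4 named were Stat3 (0.19, SE 0.14) and Socs1 (0.19, SE 0.13), a signal transducer and an inhibitor of the pathway. Ghr, the related receptor of growth hormone, had a difference of 0.16 (SE 0.07) and the kinase Jak2 one of 0.11 (SE 0.07). Among oestrogen receptor relatives, cofactors and targets 15 of 21 were measured, 3 above and 12 below 0 (median -0.08). The named genes were Ccnd1, a cell cycle gene (-0.34, SE 0.12), the coactivator Ncoa1 (-0.14, SE 0.06), the membrane receptor Gper1 (-0.31, SE 0.14) and the cofactor Cited1 (-0.30, SE 0.20). All 8 had an adjusted p of 0.67.

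Beside Nr4a2, 13 of 14 genes of its family and of the early response were measured, 5 above and 8 below 0 (median -0.04). Atf3, a stress-induced transcription factor, had a difference of 0.81 (SE 0.21, adjusted p = 0.63 in limma). It ran from -2.41 to -1.11 in exposed males and from -2.91 to -2.41 in male controls, which met, and from -2.31 to -1.88 in exposed females and from -2.98 to -2.49 in female controls, which did not overlap, as for the 1.44% of genes that lay higher in females. Egr2 (0.71, SE 0.36), Dusp1 (0.34, SE 0.16) and Arc (-0.35, SE 0.19) followed. Over the other settings Atf3 ran from 0.25, without the arrays with high ganglion markers, to 0.99. Egr2 ran from 0.12 to 0.96 and Dusp1 from 0.12 to 0.46, both lowest with normexp background correction, and Arc from -0.59 to -0.12. Of 8 factors that act with Nr4a2 in dopamine neurons 5 were measured, 3 above and 2 below 0 (median 0.17). Foxa2, En1 and En2 were not above background on any array.

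Aldh1a1, a retinoic acid-producing enzyme that marks a subset of midbrain dopamine neurons, came nearest to a call in these lists over both sexes. It ran from -1.12 to -0.78 in exposed males, against -2.43 to -2.17 in male controls, and from -1.54 to -1.08 in exposed females, against -2.53 to -1.63 in female controls. Exposed arrays lay above all controls in both sexes, as did 8.39% of genes in males and 1.44% in females. The difference over both sexes was 1.02 (SE 0.15, adjusted p = 0.0813 in limma). It stayed between 0.80 and 1.15 over 21 other settings, with an adjusted p between 0.0149, reached without female control 1, and 1.00. Pitx3 (-0.33, SE 0.22), Lmx1b (0.17, SE 0.16) and Ret (1.19, SE 0.96) were the others named, Ret being also abundant in sensory ganglion neurons and at -0.11 without the arrays with high ganglion markers.

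**Figure D5:**
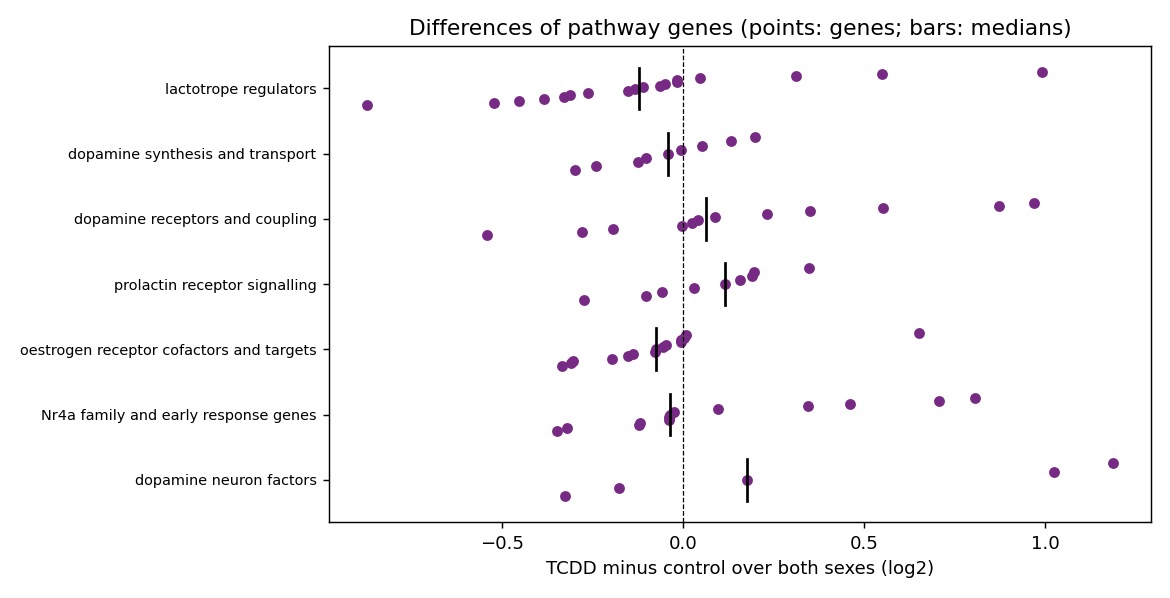
Differences over both sexes (TCDD minus control, log2) of the measured genes of 7 lists around prolactin, dopamine, oestrogen receptors and Nr4a2. Each point is a gene and each black bar the median of a list, and the medians lie between -0.12 and 0.17.

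Of the wider prolactin family, placental genes related to Prl, 22 of 23 were on the array. Of these, 17 were not well above background on any array and 4 were so on 1 or 2 arrays. Prl8a9 passed the filter, with 4 arrays above background and its highest level, -3.97, in female TCDD 2. No exposed male was well above background, so no difference is given here. The value in the closing section is a difference between mostly near-background readings.

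The genes whose levels ran most like each member over the 12 arrays were found among 12382 named genes that were well above background on all arrays, 12383 for Prlr. The likeness is Pearson's r, given as a description, and the 12 points share slides, groups and the ganglion signal. For Prl they were Ifi27 (0.83), Krt33b (0.82) and Hist1h2bo (0.81). For Drd2 they were Gramd1c (0.93), Snx1 (0.90) and Tbc1d17 (0.89). For Nr4a2 they were Tspy26 (0.92), Tspan15 (0.90) and Vps37d (0.90), and for Prlr, whose levels are mostly near background, Pkib (0.94), Ecel1 (0.90) and Ptprn (0.86). Within the 6 arrays with high and the 6 with low ganglion markers, r for these pairs lay between 0.77 and 0.98. The pairs were picked for their high r over these same arrays, so these values are no separate support for the likeness.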

How the data were processed

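The deposited files hold 1 scanner table for each of 12 arrays. Their spot intensity values are linear and background-corrected, written by Agilent Feature Extraction 10.7.1.1 per the file headers (9.5.1.1 per the submitters' processing notes), with positions on rn4. Control spots and outlier-flagged spots were left out. Log2 intensity was taken relative to each array's 75th percentile, and spots of a probe were averaged. A probe was kept if well above background on at least 3 arrays with at least 10 values (22430 of 30367), and the brightest kept probe stood for its gene. Names were updated through a RefSeq table for 18006 probes by accession and for 3213 by symbol; the remaining 9148 carry the name in the files.

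All 12 arrays were fitted together with limma 3.58.1 in R 4.3.3, with 1 mean per group, moderated variances that follow intensity, and p-values adjusted by Benjamini and Hochberg's method over 19350 genes. Calls needed an adjusted p under 0.05 in limma. The fit was tested on simulated data over both sexes, with 200 changed genes. Of changes of 1 log2 unit 76% were called, and of 2 units 93%, with 9 false calls. The simulated noise was drawn separately for each gene and array, without shared slide or ganglion signal. "Both sexes" is the mean of the male and the female difference. The authors' deposited value table, intensity values with equal medians of 83.5, ranked probes as the scanner values did and was an alternative. Which normalization made it is not given in the sources used here.

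Members and lists were chosen with earlier results of these data known. Named were all members and, of each list, up to 4 genes with the lowest unadjusted p over both sexes, besides any that passed. A gene of the regulator list is not reported here. Genes most like a member were the 3 with the highest r among those with a gene symbol, leaving out placeholder names. Replicate numbers in the titles were checked for pairing by the correlation of same-numbered arrays' deviations from their group means. For male against female controls these were 0.13, 0.75 and 0.35, all above 0.1. The 0.75 is of male control 2 and female control 2, the only controls with high ganglion markers. For exposed males against exposed females the correlations were 0.65, -0.09 and -0.39, and for TCDD against control not all were above 0.1. The check cannot tell pairing from shared ganglion signal, so pairing was left undecided. The numbers entered an alternative fit only, as a block. The number of arrays limits the precision.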

Additional observations from a re-analysis of the deposited data

How the results depend on the processing

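No member passed in any of 109 counts from 22 other settings. Nearest to a call came Nr4a2 in males within slides 1 and 3, with a difference of 0.46. In that fit male TCDD 1 was the only exposed male. Of 411 recomputed member differences 53 changed sign, 32 of them on leaving out 1 array, and the cause was not tested. Not all of the 411 could change. Leaving out an array of 1 sex, for example, keeps the difference in the other sex as it was. Prlr is given here only as read near background: the female value was -0.65, and -0.17 with normexp, -0.33 without female TCDD 2 and -1.33 without the arrays with ganglion signal, the difference between sexes was 0.83, and 0.12 with normexp, and with normexp the male value was -0.048. With median centring, Prl was -0.042 in males and -0.00339 over both sexes, and -0.038 in males in the authors' deposited value table. Both with slide as a block and within slides 1 and 3, Prl was -0.84 in males, -0.40 in females and -0.62 for both, and Drd2 was -0.33 in males, -0.093 over both sexes and -0.47 for the difference between sexes. With slide as a block, male minus female controls was 0.68 for Drd2 and -0.25 for Nr4a2, values reached only through the exposed arrays. Without the arrays with ganglion signal Nr4a2 was -0.18 in females, -0.077 for both and -0.073 between controls. In that setting Cited1 was 0.013, Ddc 0.079, Gnao1 -0.055, Gnaz -0.16, Prl8a9 0.66, Ret -0.11 and Slc18a2 -0.053 over both sexes. Ahrr was 6.30 and Cyp1a1 5.85, against 5.92 and 5.61 in the main fit. These values rest on 1 exposed array in each sex, male TCDD 3 and female TCDD 2. Gnaz and Prl8a9 were below background throughout a group. Lmx1b was -0.0023 with normexp and -0.054 with slide as a block or within slides.

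Leaving out each array in turn moved Prl between -0.29 and 0.43 in males, -0.30 and 0.44 in females and -0.15 and 0.23 for both, between -0.44 and 0.39 for the difference between sexes and -0.18 and 0.41 between controls. Drd2 moved between 0.07 and 0.53 in males, -0.12 and 0.26 in females, -0.018 and 0.48 for the difference between sexes and -0.29 and 0.092 between controls. Prlr moved between -0.072 and 0.33 in males, and Nr4a2 between -0.072 and 0.22 in females and -0.042 and 0.25 between controls. Aldh1a1 moved between 0.93 and 1.15 and passed without female control 1. The replicate block gave Nr4a2 in males 0.31 (unadjusted p = 0.0454, adjusted p = 0.552 in limma) and changed no member's call. Whether the numbers pair samples was left undecided.

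Counts over all genes were 2 in males, 2 in females, 4 for both, 0 for the difference between sexes and 2 between controls. They became 26, 2, 15, 6 and 10 with slide as a block. The male difference then rested on male TCDD 1, and the female difference on female control 3, the only female control on slide 3. Counts are left out for the fits within slides 1 and 3 and without the arrays with ganglion signal. Each of these fits has groups of 1 array. With normexp or with probes above background on all 12 arrays, males, females and controls had 1 each. Over both sexes the count was 2 with the replicate block, 6 with no filter, and 4 to 9 with 1 array left out. No sex has both its groups on slide 2.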
